A study of Mus musculus with 12 samples.

Results

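Hox genes encode homeodomain transcription factors that give cells their position along the head-to-tail axis. Their level was followed here in whole mouse embryos from fertilisation to late gestation. The members were all probe sets of the deposited table whose gene symbol cell held a Hox symbol of cluster a, b, c or d, which gave 38 probe sets of 22206. They carried 39 Hox symbols, because Hoxd3 and Hoxd4 shared a probe set. Of the 38 probe sets, 34 carried 1 symbol and 4 carried several. The 4 pair Hoxa7 with the non-coding RNA Mira, Hoxa9 with Mir196b, Hoxb4 with Mir10a, and Hoxd3 with Hoxd4, and the signal of such a pair cannot be split between its genes.

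The study sampled mouse embryos of superovulated, naturally mated females at 5 stages on 12 Clariom S arrays, which read the exons of well-annotated genes. The early stages were read from pools of embryos whose size the labels do not give: pronuclear embryos at E0.5 (2 arrays), 2-cell embryos at E1.5 (2 arrays) and morulae at E2.5 (2 arrays). The pronuclear embryos had been washed in a culture medium and incubated. The late stages were read from whole bodies of individual embryos, 3 at E10.5 and 3 at E16.5, with 1 embryo per array. No strain, sex, genotype or treatment difference is given, and the stages are the groups compared.

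In vertebrates the Hox genes lie in 4 clusters, and genes at the same relative place in different clusters, called paralogs, share a number. Genes with low numbers are switched on earlier and nearer the head, and genes with high numbers later and nearer the tail, a property known as collinearity. The forebrain does not express them. Before gastrulation the clusters are held silent by Polycomb proteins, and retinoic acid, Wnt and Fgf signals and the Cdx factors take part in opening them. Hox proteins bind DNA together with Pbx and Meis cofactors.

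The deposited annotation on mm10 placed the 11 Hoxa probe sets on the minus strand of chromosome 6. The 10 Hoxb probe sets lay on chromosome 11 between 96194316 and 96368256 (173.9 kb), the 9 Hoxc probe sets on chromosome 15 between 102921103 and 103036852 (115.8 kb), and the 8 Hoxd probe sets on chromosome 2 between 74668308 and 74765142 (96.8 kb), all on the plus strand. All 39 symbols were found in the RefSeq gene table of GRCm38.p6.

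MicroRNA genes lie inside these clusters, and 2 of them share a probe set with a Hox gene, so their mature sequences are shown to make clear which small RNAs those probe sets name. Sequences are from RefSeq on GRCm38.p6, written 5′ to 3′, with the seed (bases 2 to 8, by which a microRNA recognises its targets) in capitals. The miR-10 pair comes from the Hoxb cluster (chr11:96317186-96317208, plus strand) and from within the Hoxd3 and Hoxd4 span (chr2:74726074-74726096, plus strand) and shares the seed ACCCUGU. The miR-196 pair comes from beside Hoxa9 (chr6:52230129-52230150, minus strand) and, for miR-196a, from both the Hoxb cluster (chr11:96265187-96265208, plus strand) and the Hoxc cluster (chr15:102973365-102973386, plus strand), and shares the seed AGGUAGU.
miR-10a-5p: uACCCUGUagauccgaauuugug
miR-10b-5p: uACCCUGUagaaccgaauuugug
miR-196b-5p: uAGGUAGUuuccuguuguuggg
miR-196a-5p: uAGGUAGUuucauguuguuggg
Arrays of this kind read the host transcripts, so none of the values below is a level of a mature microRNA.

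RefSeq start sites on GRCm38.p6 gave 24 promoter windows for 22 of the Hox genes, each of 300 bases that lie around a start site and mostly before it. Most windows belong to Hoxa and Hoxd genes. The Hoxb cluster is covered only by Hoxb1, Hoxb4 and Hoxb8, and the Hoxc cluster only by Hoxc4. The windows held a median of 14.5 CG dinucleotides against 7 over all 32851 windows, and a GC content of 57.7% against 52.7%. Among the 20 windows that belong to members higher at E10.5 than in the morula, the number of CG ranged from 4 to 37 (median 13.5), and among the 4 of members that did not pass it ranged from 13 to 45 (median 17.5), and this difference was not tested. The windows of Hoxd11, which rose, held 4 and 25 CG. The window of Hoxa2, which also rose, held 9, and that of Hoxa13, which did not pass, held 45. The CG-rich window of Hoxd11 and those of Hoxa2 and Hoxa13 are shown because CG content differs widely among them. Capitals mark each CG.
Hoxd11, chr2:74682073-74682372, plus strand: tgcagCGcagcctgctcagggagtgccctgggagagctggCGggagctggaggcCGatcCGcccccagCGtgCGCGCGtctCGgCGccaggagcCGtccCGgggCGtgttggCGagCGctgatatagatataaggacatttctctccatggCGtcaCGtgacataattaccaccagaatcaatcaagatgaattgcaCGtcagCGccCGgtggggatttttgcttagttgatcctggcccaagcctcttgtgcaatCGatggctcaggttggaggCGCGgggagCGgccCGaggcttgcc
Hoxa2, chr6:52164782-52165081, minus strand: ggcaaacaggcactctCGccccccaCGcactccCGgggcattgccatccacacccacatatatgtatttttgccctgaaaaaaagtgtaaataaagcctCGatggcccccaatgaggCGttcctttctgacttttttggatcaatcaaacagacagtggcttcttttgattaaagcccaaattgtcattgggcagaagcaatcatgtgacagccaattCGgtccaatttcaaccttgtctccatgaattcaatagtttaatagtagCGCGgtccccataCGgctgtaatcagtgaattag
Hoxa13, chr6:52260831-52261130, minus strand: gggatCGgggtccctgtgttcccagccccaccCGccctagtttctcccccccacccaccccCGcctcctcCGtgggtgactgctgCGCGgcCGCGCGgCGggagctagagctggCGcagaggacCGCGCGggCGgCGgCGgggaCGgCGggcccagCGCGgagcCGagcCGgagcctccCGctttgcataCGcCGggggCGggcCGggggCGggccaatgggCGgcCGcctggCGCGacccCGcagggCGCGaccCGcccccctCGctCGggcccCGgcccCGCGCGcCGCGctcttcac
The Hox-Pbx motif TGATTNAT, searched on both strands with overlaps allowed, was found in 2 of the 24 windows (8.3%, against 3.22% of all windows). Both matches read ATCAATCA, at position 178 of the Hoxd11 window and at position 140 of the Hoxa2 window. CCAAT, likewise on both strands, was found in 62.5% of the Hox windows and in 37.41% of all windows. A match of letters is a description of the window and not a binding site.

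Signals are given on the log2 scale of the deposited values, and changes are differences on that scale from limma, with Benjamini-Hochberg adjustment over all 22206 probe sets. Array medians lay between 6.19 and 6.59, and correlations between arrays of a stage between 0.978 and 0.992. Array names gave 1 date for the early stages and another for the late stages. For E10.5 or E16.5 against the morula, stage, date and the use of pools or single embryos therefore cannot be told apart, while the other comparisons lay within a date. The median over all probe sets differed by -0.17 between E10.5 and the morula and by -0.08 between E16.5 and E10.5. As a guide to background, 1407 probe sets of olfactory and vomeronasal receptors were used, and a stage mean at or under their 95th percentile (6.02, 6.51, 6.18, 5.47 and 5.42 in order of stage) is called within the receptor range. Where the dimmer stage of a called change lay in that range, the fitted change is given with a lower bound ("at least") measured from the percentile, if any of the change was left above it. In whole embryos, fewer cells of a type and less RNA per cell cannot be told apart.

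Hox signals lay mostly within the receptor range before implantation and left it at E10.5. Of 38 members, 5 were above the range at the pronuclear stage, 3 at the 2-cell stage, 4 in the morula, 27 at E10.5 and 15 at E16.5. Over all probe sets the share above it ran from 47.9% at the 2-cell stage to 64.3% at E16.5, with 50.2% in the morula and 59.1% at E10.5. In 20 members every early stage lay in the range and E10.5 above it. Hoxa4 and Hoxb2 were above it at every stage, and 11 members at none, which were Hoxa6, Hoxa11, Hoxa13, Hoxb13, Hoxc11, Hoxc12, Hoxc13, Hoxd1, Hoxd9, Hoxd12 and Hoxd13. The median signal of the 38 members was 4.28 to 4.72 on the 6 early arrays, 6.77 to 7.05 on the E10.5 arrays and 4.77 to 4.97 on the E16.5 arrays. An F test over the stages passed for 33 of the 38, against 78.9% of all probe sets. The authors' deposited false discovery rates of the members equal these adjusted p values. Their 33 of 38 under 0.05 is therefore not a separate result.

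**Figure D1:**
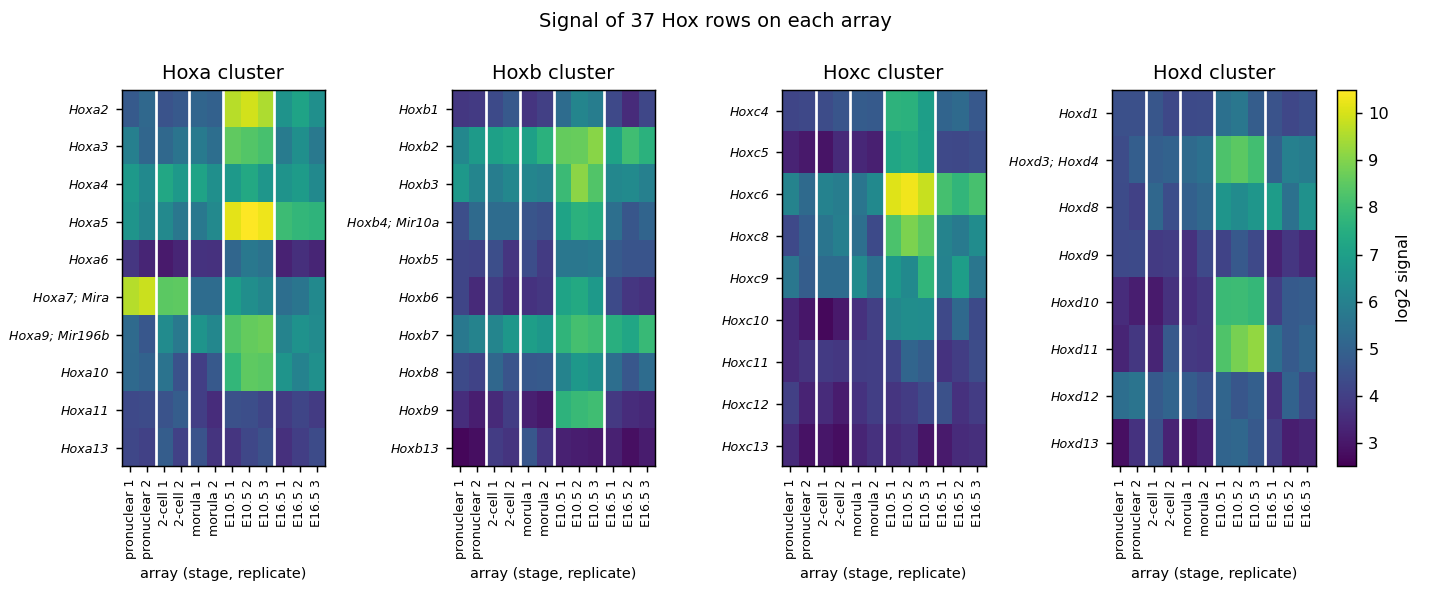
Log2 signal (colour) of 37 Hox probe sets, by cluster and ordered by paralog number, on each of the 12 arrays, with white lines between stages. Most rows are brightest on the 3 E10.5 arrays, the Hoxa7 and Mira row is brightest on the pronuclear arrays, and the rows with the highest numbers stay dark on every array.

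Before implantation few members changed. From the pronuclear to the 2-cell stage 3 members rose and 1 fell, against 16.1% and 19.6% of all probe sets. From the 2-cell stage to the morula 1 rose and 2 fell, against 20.0% and 20.2%. The Hoxa7 and Mira probe set (chromosome 6, 52214491 to 52221854) stood out by its size and lay far above the receptor range at the outset. Hoxa7 patterns the thoracic skeleton, and Mira is a long non-coding RNA gene beside it. The signal was 9.61 and 9.87 on the pronuclear arrays, 8.50 and 8.50 on the 2-cell arrays, and 5.32 and 5.33 on the morula arrays. The stages did not overlap, and each lay below the stage before it. It fell by 1.24 ± 0.35 (SE, adjusted p = 0.01045) and then by 3.18 ± 0.35 (adjusted p = 2.44e-06), of which at least 2.32 lay above the receptor range. The earlier call was lost without the second pronuclear pool (adjusted p = 0.07432), and the later one was kept under all 22 alternative settings. Which of the paired transcripts carries this signal was not tested.

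Markers of cumulus and granulosa cells, maternal cells that surround the egg, were also followed over these stages. Their mean signal per array over 8 markers was 6.12 to 6.30 at the pronuclear stage, 5.24 to 5.45 at the 2-cell stage and 4.74 to 5.05 in the morula, and 3, 2 and 2 of the 8 lay above the receptor range. From the pronuclear to the 2-cell stage 3 of the 8 fell and 0 rose in limma's test, against 19.6% and 16.1% of all probe sets (median change -0.34). From there to the morula 1 fell and 2 rose, near the shares of 20.2% and 20.0% (median change -0.01). The 2 brightest of the 8 at the pronuclear stage were Tnfaip6, at means of 11.28, 9.49 and 4.6 over the 3 stages, and Inha, at 11.03, 7.38 and 7.23. Ptx3 stood at 6.37, 6.0 and 5.37, and Has2 at 5.88, 5.56 and 6.53. Amh, Cyp19a1, Foxl2 and Pgr lay within the receptor range at all 3 stages, with means from 2.52 to 4.49. The part of such cells in the Hoxa7 and Mira signal was not tested.

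The other early calls were small and lay within the receptor range at both stages. From the pronuclear to the 2-cell stage Hoxc8, a gene of the thoracic region, went from 4.27 and 4.90 to 5.60 and 5.96, a rise of 1.20 ± 0.39 (adjusted p = 0.02584). Hoxb13 went from 2.65 and 2.81 to 3.91 and 3.71, a rise of 1.08 ± 0.31 (adjusted p = 0.01307). The Hoxa9 and Mir196b probe set went from 5.27 and 4.68 to 6.35 and 5.73, a rise of 1.06 ± 0.33 (adjusted p = 0.01905). In none of the 3 did the arrays of the stages overlap. With 2 arrays per stage this is common. Over the 38 members the 2-cell arrays lay wholly higher in 12 and wholly lower in 4, while only 3 rose and 1 fell. The share over all probe sets was not counted. From the 2-cell stage to the morula Hoxc10 rose by 0.97 ± 0.35, from 2.68 and 3.06 to 3.65 and 4.01 (adjusted p = 0.037). Hoxa11 fell by 0.96 ± 0.28, from 4.54 and 4.86 to 3.97 and 3.51 (adjusted p = 0.01332). Each of these 5 calls was lost when an array of a stage compared was left out. Adjusted p values were then 0.195 for Hoxc8 without the first pronuclear pool and 0.1284 without the second 2-cell pool. For Hoxb13 they were 0.07488 without the first pronuclear and 0.07213 without the first 2-cell pool. For Hoxa9 and Mir196b they were 0.1764 without the second pronuclear and 0.1671 without the first 2-cell pool. For Hoxc10 they were 0.1788 without the first 2-cell and 0.1765 without the second morula pool, and also 0.05015 and 0.05089 without the second or the last E10.5 embryo. For Hoxa11 they were 0.08754 without the second 2-cell and 0.1102 without the second morula pool.

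At E10.5 the Hox genes were higher than in the morula in every cluster. Of 38 members 28 rose, against 25.0% of all probe sets, and 1 fell, against 26.8%. The median change was 1.84, against -0.17 over all probe sets and -0.42 over the receptor probe sets. Its SD was 0.22 over the 3 E10.5 embryos, each set against the morula mean, which leaves out the spread of the pools. All E10.5 arrays lay above both morula arrays in 30 members, against 31.7% of all probe sets. By cluster 8 of 11 Hoxa, 9 of 10 Hoxb, 5 of 9 Hoxc and 6 of 8 Hoxd members rose. By paralog number 10 of 11 members of groups 1 to 4 rose, 11 of 11 of groups 5 to 8, and 7 of 16 of groups 9 to 13.

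Among the genes nearest the head end, Hoxa2 changed most. Hoxa2 sets the identity of the second pharyngeal arch (chromosome 6, 52162351 to 52165413). Its signal was 5.12 and 4.97 on the morula arrays and 9.65, 9.95 and 9.51 at E10.5, where every embryo lay far above every pool. The change was 4.66 ± 0.28 (adjusted p = 2.15e-09), at least 3.53 above the receptor range. Its paralog Hoxb2, already above the range early, went from 7.05 and 7.60 to 8.60, 8.63 and 9.07, a rise of 1.44 ± 0.33 (adjusted p = 0.00162).

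Group 1 patterns the hindbrain. Hoxb1, which marks a segment of the hindbrain, went from 3.75 and 4.03 to 5.33, 6.15 and 5.89 (1.90 ± 0.32, adjusted p = 1.15e-04), without overlap. Its E10.5 mean was above the range of that stage but under the range of the morula, so no lower bound can be given. Hoxd1, known in mice for the wiring of pain-sensing neurons, went from 4.29 and 4.33 to 5.47, 5.68 and 4.85 (1.02 ± 0.28, adjusted p = 0.007068), within the receptor range at both stages.

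Members of groups 3 and 4 rose, apart from Hoxa4. Hoxa3, needed for thymus and parathyroid, rose by 2.78 ± 0.32 (at least 2.18) and Hoxb3 by 2.37 ± 0.33 (at least 2.28). The Hoxd3 and Hoxd4 probe set rose by 2.91 ± 0.32 (at least 2.10) and the Hoxb4 and Mir10a probe set by 2.85 ± 0.31 (at least 1.22), with adjusted p of the 4 from 1.41e-06 to 1.94e-05. Hoxc4, the lowest-numbered Hoxc gene, stood at 4.82 and 4.78 in the morula and at 7.68, 7.61 and 6.98 at E10.5 (2.62 ± 0.28, adjusted p = 1.22e-06, at least 1.24). Hoxa4 was the exception, at 7.13 and 6.48 in the morula and at 6.80, 7.34 and 6.70 at E10.5, which overlapped (0.14 ± 0.32, adjusted p = 0.7372). The annotated span of Hoxa3 (52168510 to 52213336) covers the Hoxa4, Hoxa5 and Hoxa6 spans on the same strand, and the specificity of their probes was not tested.

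**Figure D2:**
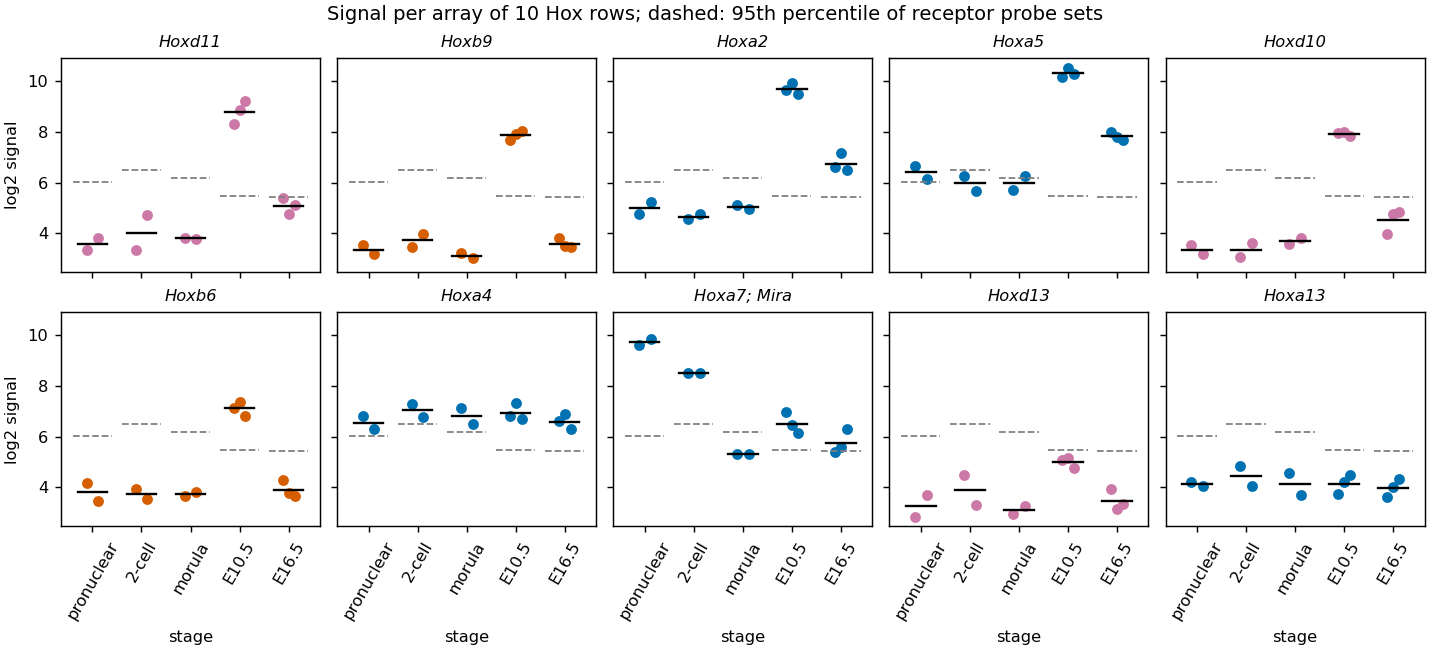
Log2 signal of 10 Hox probe sets on every array by stage: dots are arrays, black bars are stage means, and the dashed line is the 95th percentile of the receptor probe sets. Hoxd11, Hoxb9, Hoxa2, Hoxa5, Hoxd10 and Hoxb6 stand apart at E10.5, Hoxa4 overlaps between stages, the Hoxa7 and Mira probe set starts at 9.61 and 9.87, and Hoxa13 stays under the line.

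In the middle of the clusters every member rose. Hoxa5, which acts in the lung and the neck and upper thoracic skeleton (chromosome 6, 52201754 to 52204587), stood at 5.70 and 6.25 in the morula and at 10.18, 10.53 and 10.30 at E10.5. No array of either stage came near the other, and the change was 4.36 ± 0.29 (adjusted p = 6.15e-09, at least 4.16). Hoxc6 rose by 4.13 ± 0.31 (adjusted p = 2.50e-08, at least 3.91) and Hoxc5 by 3.93 ± 0.26 (adjusted p = 6.15e-09, at least 1.05). Their paralogs Hoxb5 (1.57 ± 0.27, adjusted p = 1.57e-04) and Hoxa6 (1.80 ± 0.27) also rose, Hoxb5 with no lower bound to give and Hoxa6 within the receptor range at both stages. Differences between probe sets were not tested.

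Hoxb6 (chromosome 11, 96292476 to 96301569) went from 3.67 and 3.80 to 7.14, 7.37 and 6.83, a rise of 3.38 ± 0.31 (adjusted p = 1.94e-07, at least 0.94). Hoxc8 went from 5.44 and 4.29 to 8.24, 8.93 and 8.49, a rise of 3.69 ± 0.36 (adjusted p = 3.87e-07, at least 2.37). In both genes the stages were well apart. In group 7 both members rose. The Hoxa7 and Mira probe set, after its early fall, went from 5.32 and 5.33 to 6.96, 6.46 and 6.14 (1.19 ± 0.32, adjusted p = 0.004969, at least 0.34), below its pronuclear level. Hoxb7 went from 6.99 and 6.73 to 7.75, 8.15 and 7.97 (1.10 ± 0.29, adjusted p = 0.004992).

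Among the genes nearest the tail end the members divided. Hoxd11, which with Hoxa11 shapes the forearm and the kidney (chromosome 2, 74679392 to 74687741), had the largest fitted change, but from a morula signal within the receptor range, and the lower bounds of Hoxa5, Hoxc6 and Hoxa2 exceed its own. Its signal was 3.82 and 3.77 in the morula and 8.31, 8.87 and 9.20 at E10.5. The change was 5.00 ± 0.38 (adjusted p = 3.10e-08), at least 2.61 above the receptor range, without overlap. Hoxb9, active in the thoracic region (chromosome 11, 96271330 to 96276595), went from 3.21 and 3.03 to 7.69, 7.92 and 8.04 (4.77 ± 0.27, adjusted p = 9.68e-10, at least 1.71). Hoxd10, a gene of the lumbar spinal cord and hindlimb (chromosome 2, 74691090 to 74695106), went from 3.56 and 3.80 to 7.95, 8.0 and 7.83 (4.25 ± 0.30, adjusted p = 1.38e-08, at least 1.75). In each of these the E10.5 embryos lay far above the pools.

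Paralogs of these genes moved too, but not all passed. In group 10, Hoxa10, which acts in the lumbar skeleton and the uterus, rose by 3.90 ± 0.36 (at least 2.08) and Hoxc10 by 2.51 ± 0.32 (at least 0.16), both from morula means within the receptor range. In group 9 the Hoxa9 and Mir196b probe set rose by 2.12 ± 0.30, while Hoxc9 (1.02 ± 0.46, adjusted p = 0.07828) and Hoxd9 (0.42 ± 0.29, adjusted p = 0.2449) did not pass. In group 11 the rise of Hoxd11 stood beside 0.62 ± 0.26 for Hoxa11 (adjusted p = 0.05765) and 0.71 ± 0.31 for Hoxc11 (adjusted p = 0.07203). In Hoxa11 and Hoxc11 all E10.5 arrays lay above both morula arrays. These 4 calls depended on the setting. Hoxc9 passed under 3 of 22 alternatives, Hoxd9 under 3 of 21, Hoxa11 under 5 of 21 and Hoxc11 under 4 of 21.

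Of the 6 members of groups 12 and 13, only Hoxd13 rose in this fit. Hoxd13, which forms digits and external genitalia, went from 2.95 and 3.27 to 5.07, 5.17 and 4.75 (1.89 ± 0.37, adjusted p = 5.25e-04), within the receptor range at both stages. Hoxa13, its partner in the digits, stood at 4.56 and 3.70 in the morula and at 3.72, 4.20 and 4.49 at E10.5, which overlapped (0.01 ± 0.35, adjusted p = 0.9831). Hoxc13, known for hair and nails, stood at 3.32 and 3.65 and then at 3.45, 3.64 and 2.95, which also overlapped (-0.14 ± 0.30, adjusted p = 0.7171). Hoxb13, a gene of the tail and the prostate, was the one that fell, from 4.66 and 3.78 to 3.23, 3.13 and 3.08 (-1.07 ± 0.28, adjusted p = 0.005065), within the receptor range at every stage. Without the first morula pool its change was -0.63 and did not pass (adjusted p = 0.1153).

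**Figure D3:**
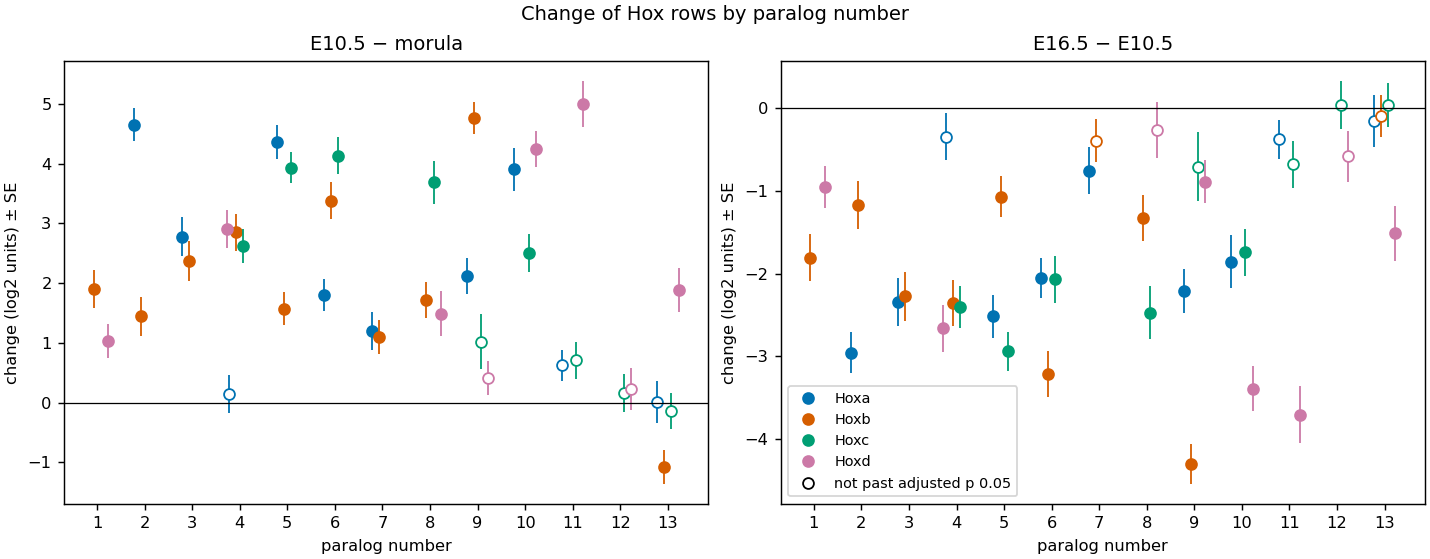
Change in log2 signal ± SE (vertical axis) of 37 Hox probe sets by paralog number (horizontal axis), coloured by cluster, for E10.5 minus morula (left) and E16.5 minus E10.5 (right). Open points did not pass an adjusted p of 0.05, and the Hoxd3 and Hoxd4 probe set is drawn once, beside group 4. At left 27 points are filled above the line, and at right 26 are filled below it.

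As a description, Spearman's rho between paralog number and the fitted change from the morula to E10.5 was -0.32 over the 38 members, -0.35 over 11 Hoxa, -0.12 over 10 Hoxb, -0.87 over 9 Hoxc and 0.07 over 8 Hoxd members. All members come from the same arrays and neighbours in a cluster are not independent, and most fitted changes start within the receptor range. In the Hoxc cluster the fitted changes ran from 3.93 and 4.13 for Hoxc5 and Hoxc6 down to 0.16 for Hoxc12 and -0.14 for Hoxc13, while in the Hoxd cluster the largest were those of Hoxd10 and Hoxd11.

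From E10.5 to E16.5 the Hox genes fell in every cluster. Of 38 members 27 fell, against 20.1% of all probe sets, and 0 rose in limma's test, against 17.3% (also 0 at an unadjusted p under 0.05). The median change was -1.78, against -0.08 over all probe sets and -0.13 over the receptor probe sets. Its SD was 0.14 over the 3 E16.5 embryos, each set against the E10.5 mean, which leaves out the spread at E10.5. All E16.5 arrays lay below all E10.5 arrays in 26 members, against 27.5% of all probe sets. By cluster 8 of 11 Hoxa, 8 of 10 Hoxb, 5 of 9 Hoxc and 6 of 8 Hoxd members fell. By paralog number 10 of 11 in groups 1 to 4, 9 of 11 in groups 5 to 8 and 8 of 16 in groups 9 to 13 fell. The array names of both stages carry the same date, and the labels do not say what it marks.

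Hoxb9, whose E10.5 signals are given above, stood at 3.82, 3.50 and 3.44 at E16.5. The fitted change was -4.30 ± 0.24 (adjusted p = 1.82e-09), the largest fitted fall, with a lower bound of 2.46, which is less than that of Hoxd11. The E16.5 embryos lay near its morula pools. Hoxd11 stood at 5.38, 4.76 and 5.12 at E16.5 (-3.70 ± 0.34, adjusted p = 5.74e-07, at least 3.37). Hoxd10 stood at 3.98, 4.77 and 4.85 (-3.39 ± 0.27, adjusted p = 1.15e-07, at least 2.50), and Hoxb6 at 4.31, 3.76 and 3.64 (-3.21 ± 0.27, adjusted p = 2.35e-07, at least 1.69). All 4 ended within the receptor range, and none overlapped between the stages.

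Hoxa2 fell without reaching that range. It stood at 6.61, 7.15 and 6.49 at E16.5, a change of -2.95 ± 0.25 (adjusted p = 2.24e-07). Hoxa5 stood at 7.98, 7.78 and 7.70 (-2.52 ± 0.26, adjusted p = 1.69e-06), and Hoxc6 at 8.14, 7.75 and 8.16 (-2.07 ± 0.28, adjusted p = 2.57e-05). These 3 kept clear signals at E16.5, above the receptor range in every embryo.

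At the cluster ends, Hoxb1 stood at 4.27, 3.48 and 4.19 (-1.81 ± 0.28, adjusted p = 1.11e-04, a fall of at least 0.36) and Hoxd1 at 4.54, 4.21 and 4.38 (-0.96 ± 0.25, adjusted p = 0.007334). Both lay within the receptor range at E16.5. Hoxc4 stood at 5.09, 5.26 and 4.71 (-2.40 ± 0.25, adjusted p = 2.05e-06, a fall of at least 2.0). Hoxd13 stood at 3.95, 3.16 and 3.33 (-1.52 ± 0.33, adjusted p = 0.001908), whereas Hoxa13 (3.62, 4.0 and 4.34), Hoxb13 (3.22, 2.84 and 3.10) and Hoxc13 (3.08, 3.50 and 3.58) overlapped their E10.5 values, with adjusted p from 0.7608 to 0.9387.

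Hoxb7 and Hoxd8 had risen at E10.5 and did not pass for a fall. Hoxb7 stood at 7.56, 7.24 and 7.88 at E16.5 (-0.40 ± 0.26, adjusted p = 0.269). Hoxd8 stood at 6.68, 6.35 and 6.70 at E10.5 and at 6.91, 5.47 and 6.55 at E16.5 (-0.27 ± 0.33, adjusted p = 0.6024). In both genes the embryos of the stages overlapped. Hoxa4 also overlapped, at 6.61, 6.89 and 6.30 at E16.5 (-0.35 ± 0.28, adjusted p = 0.3924). The Hoxa7 and Mira probe set passed for a fall by a narrow margin, from 6.96, 6.46 and 6.14 to 5.38, 5.61 and 6.31 (-0.76 ± 0.28, adjusted p = 0.04668). Its embryos overlapped, and the call was lost under 17 of 22 alternative settings, among them the fit with the replicate number as a block (adjusted p = 0.0732) and those without any 1 early array (0.05132 to 0.05579). It was also lost without the first (0.219) or second (0.0903) E10.5 embryo, and without the first (0.1877) or second (0.1116) E16.5 embryo. Hoxd9, in the receptor range throughout, fell by 0.89 ± 0.26 (adjusted p = 0.01194), which was lost without the second E10.5 embryo (adjusted p = 0.07385) or the first E16.5 embryo (adjusted p = 0.05092).

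E16.5 was also compared with the morula, which shares its arrays with the preceding comparisons. Of 38 members 9 were higher, near the 27.8% of all probe sets, and 1, Hoxb13, was lower, against 30.0%. The 9 were Hoxa2, Hoxa5, Hoxa10, Hoxc5, Hoxc6, Hoxc8, Hoxd8, Hoxd10 and Hoxd11. Their changes ran from 0.85 ± 0.30 for Hoxd10 (adjusted p = 0.02511) to 2.06 ± 0.31 for Hoxc6 (adjusted p = 3.78e-05, at least 1.84). Of the 9, Hoxc5, Hoxd10 and Hoxd11 lay within the receptor range at both stages, Hoxc8 had no lower bound to give, and the bounds of Hoxa10 and Hoxd8 were 0.22 and 0.13. Hoxa5 was higher by 1.84 ± 0.29 (adjusted p = 5.36e-05, at least 1.64) and Hoxa2 by 1.70 ± 0.28 (adjusted p = 8.85e-05, at least 0.57). The Hoxd10 call was lost with the replicate number as a block (adjusted p = 0.05352), and without the first morula pool (0.133), the second E16.5 embryo (0.0645) or the last one (0.09175). That of Hoxc8 was lost without the second morula pool (adjusted p = 0.1808), and that of Hoxd8 without the first morula pool (0.07536) or the first E16.5 embryo (0.05465). With arrays centred on the receptor median, 21 of the 38 members were higher, against 8538 of all 22206 probe sets. How the members compare with all probe sets therefore depends on the scaling.

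The counts of other gene lists are to be read against the shares of all probe sets, which were 25.0% rising and 26.8% falling from the morula to E10.5, and 17.3% and 20.1% from E10.5 to E16.5. Among the cofactors with which Hox proteins bind DNA, 8 of 10 listed genes rose from the morula to E10.5 and 1 fell, with a median change of 2.82, and from E10.5 to E16.5 9 fell, with a median of -2.23. The list holds the Pbx, Meis and Pknox homeobox genes and the DNA-bending protein gene Hmgb1. Meis2 rose by 8.26 ± 0.25 (adjusted p = 1.70e-12, at least 8.08), from a mean of 6.0 ± 0.20 (SD, n = 2) to 14.26 ± 0.07 (SD, n = 3), and then fell by 2.78 ± 0.23 (adjusted p = 1.37e-07). Meis1 rose by 7.32 ± 0.30 (adjusted p = 3.43e-11) and fell by 2.76 ± 0.27 (adjusted p = 1.03e-06), to a mean of 11.20 ± 0.35 (SD, n = 3). Meis2 had also been bright before the morula, with means of 17.37 at the pronuclear and 15.85 at the 2-cell stage. At E16.5, 9 of the 10 cofactors were above the receptor range.

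The genes that switch the clusters on were mixed. Of 21 listed genes of retinoic acid, Wnt, Fgf and Cdx signalling 9 rose and 3 fell from the morula to E10.5 (median 0.41), and 2 rose and 9 fell to E16.5 (median -0.67). Rarb, a retinoic acid receptor that retinoic acid itself induces, rose by 4.05 ± 0.32 (adjusted p = 4.66e-08). Cdx2, a trophectoderm factor in the morula and an activator of posterior Hox genes later, fell by 5.27 ± 0.37 (adjusted p = 1.07e-08, at least 5.05), from a mean of 10.52 ± 0.18 (SD, n = 2) to 5.25 ± 0.49 (SD, n = 3). To E16.5 the largest changes were those of Gdf11, a signal for the trunk-to-tail transition (-3.20 ± 0.31, adjusted p = 9.88e-07), and of Rarb (-3.19 ± 0.29, adjusted p = 4.37e-07).

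Chromatin regulators of the clusters did not move in 1 direction at E10.5. Of 28 Polycomb and Trithorax genes 11 rose and 9 fell from the morula to E10.5 (median -0.17), and 2 rose and 22 fell to E16.5 (median -1.51). Phc1, a subunit of the Polycomb complex that compacts chromatin, rose by 5.05 ± 0.37 (adjusted p = 1.68e-08). Jarid2, which guides the Polycomb methyltransferase complex, fell by 4.63 ± 0.31 (adjusted p = 6.16e-09), from a mean of 16.08 ± 0.09 (SD, n = 2) to 11.46 ± 0.05 (SD, n = 3). To E16.5 Cbx2 fell by 3.35 ± 0.33 (adjusted p = 1.17e-06) and Phc1 by 2.88 ± 0.33 (adjusted p = 5.00e-06).

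**Figure D4:**
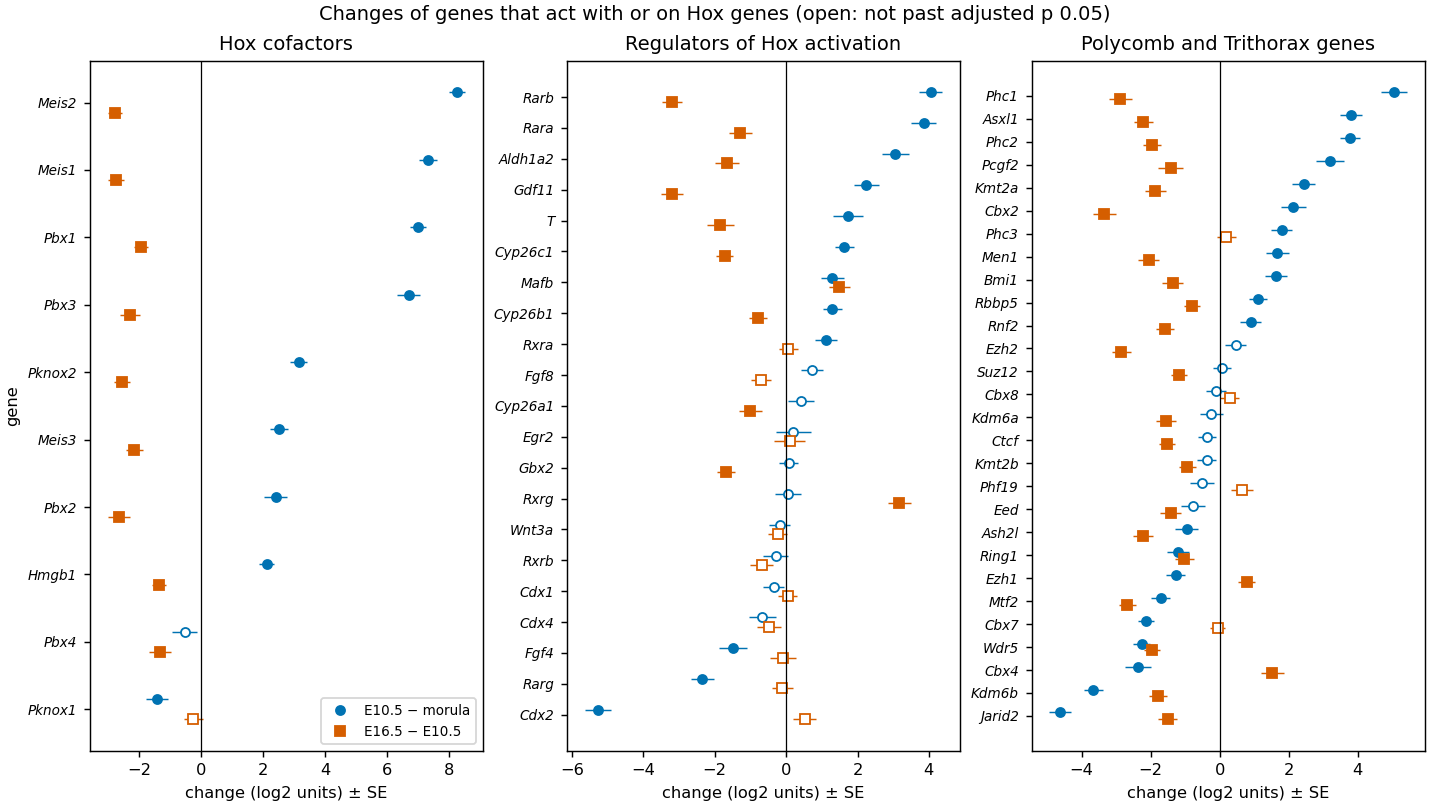
Change in log2 signal ± SE (horizontal axis) of each listed cofactor, regulator of activation and Polycomb or Trithorax gene, for E10.5 minus morula (circles) and E16.5 minus E10.5 (squares), where open symbols did not pass an adjusted p of 0.05. Of the cofactors 8 of 10 circles lie filled to the right of 0 and 9 of 10 squares filled to the left, while circles of the other lists lie on both sides.

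Of 34 listed genes beside the clusters, 19 had a probe set of their own within 1 Mb of a cluster, and of these 5 rose and 7 fell from the morula to E10.5 (median 0.04), and 3 rose and 4 fell to E16.5 (median -0.06). The 5 rises are near the share of all probe sets. The largest changes were those of Snf8, a subunit of the endosomal sorting machinery (-5.41 ± 0.26, adjusted p = 1.98e-10), and Ttll6, a tubulin-modifying enzyme (-4.83 ± 0.34, adjusted p = 1.11e-08), both near the Hoxb cluster. Picked after their values were seen, the homeobox genes at the tail-side ends of 2 clusters did not pass from the morula to E10.5, with 0.51 ± 0.35 for Evx1 (adjusted p = 0.2471) and 0.04 ± 0.26 for Evx2 (adjusted p = 0.9198). Picked in the same way, Hoxa11os, transcribed antisense to Hoxa11, rose by 1.66 ± 0.46 (adjusted p = 0.006765, at least 0.68) and then fell by 1.19 ± 0.41 (adjusted p = 0.03147). Of 17 ParaHox and related homeobox genes 6 rose and 1 fell, and then 1 rose and 4 fell. Meox1, a somite gene, rose by 4.32 ± 0.35 (adjusted p = 5.96e-08, at least 1.78) and fell by 3.29 ± 0.32 (adjusted p = 8.32e-07, at least 2.53).

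Markers of the tissues in which Hox genes act were counted against the same shares of all probe sets. Of 8 limb bud markers 5 rose from the morula to E10.5 and 4 fell to E16.5. Their mean signal per array was 5.87 to 5.89, then 7.31 to 7.65, then 6.45 to 7.01. In the pronuclear pools that mean was already 7.33 to 7.53, with Tbx4 at a mean of 16.16 there against 8.79 at E10.5. Of 8 markers of spinal motor neurons 5 rose and 3 fell (4.68 to 4.83, then 6.56 to 6.71, then 5.67 to 5.82), and of 8 of the tail bud 2 rose and 2 fell, near the shares of all probe sets (4.97 to 5.40, then 5.82 to 6.22, then 5.02 to 5.21). Of 8 kidney and urogenital markers 4 rose, and to E16.5 2 rose and 4 fell. Head and forebrain markers, listed for tissue without Hox expression, also moved. From the morula to E10.5 4 of 8 rose and 1 fell, and 4 fell by E16.5. Among these markers Otx2 rose by 3.38 ± 0.35 (adjusted p = 7.40e-07) and fell by 4.87 ± 0.31 (adjusted p = 8.32e-09). Emx2 is also on the kidney and urogenital list, so in whole embryos these markers are not limited to tissue without Hox expression. The part of these tissues' shares in the Hox changes was not tested.

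Of tissue outside the embryo, 9 markers of placenta and decidua included 3 that fell from the morula to E10.5 and 2 that fell from E10.5 to E16.5. At most 1 of the 9 lay above the receptor range in these embryos, Prl3b1 at E10.5 with a mean of 6.33, against 8.42 in the morula. Of 8 markers of cumulus and granulosa cells 3 rose at E10.5, among them Tnfaip6 by 3.91 ± 0.30 (adjusted p = 3.20e-08, at least 2.33) and Has2, a hyaluronan synthase that embryonic mesenchyme also makes, by 2.47 ± 0.33 (adjusted p = 1.26e-05). In the morula pools 2 of the 8 lay above the receptor range.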

How the data were processed

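Per the labels, RNA of whole embryos was hybridised to 12 Clariom S Mouse arrays. The authors deposited gene-level log2 signals, which per the file headers are SST-RMA values (robust multi-array averaging after a signal space transformation), and their table also gives p-values and false discovery rates of an F test over the stages. The Transcriptome Analysis Console was used per the submitters' processing notes, and the headers give mm10. The aggregation of probes into probe sets was the authors' and was not repeated. A deposited second table held the same values (0 differences).

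Stages were fitted with limma 3.58.1 in R 4.3.3 (lmFit, eBayes) in 1 model of 5 stages on all 12 arrays and all 22206 probe sets, including those with several symbols, with a threshold of 0.05. All p-values are two-sided. The labels call the early samples biological replicates. These are pools for which nothing says that they came from separate matings, so their spread may still be technical. On simulated data with known changes the fit was checked for sign and size. Arrays have no counting depth, and their number limits the precision.

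The members, gene lists, tests and rule for named genes were chosen with earlier results of these data known. Named were the lowest and highest paralog of each cluster, the 5 largest rises and falls of the late comparisons, up to 4 of each early comparison, and up to 2 per list and comparison. Other members are given in groups or by counts. The values of 1 member are not reported here, and the figures show 37 of 38. Alternatives were an intensity trend, array weights, a replicate block, 4 other scalings, a filter on dim probe sets, probe sets with 1 symbol, stricter thresholds, smaller fits and leaving out each array. Same-numbered arrays deviated together only weakly (r from 0.0051 to 0.0399). With 2 or 3 arrays per stage this cannot decide whether the numbers pair the samples. The main fit did not use them. Figures used Python 3.11.15 and matplotlib 3.10.9.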

Additional observations from a re-analysis of the deposited data

How the results depend on the processing

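No called change of a member named in the report, and neither median over the members, changed direction under the alternatives run. The median over all probe sets did, with receptor centring, for E10.5 against the morula (-0.17 to 0.31), for E16.5 against the morula (-0.16 to 0.44) and for E16.5 against E10.5 (-0.08 to 0.04, and 0.05 with upper-quartile centring), and with upper-quartile centring for the 2-cell against the pronuclear stage (-0.01 to 0.15). The count of members that rose to E10.5 ranged from 27 to 30 and of those that fell to E16.5 from 25 to 28 when single arrays were left out, and the replicate block gave 28 and 26. With the block the F test over the stages passed for 30 members against 33, losing Hoxa11 (adjusted p = 0.06842), Hoxc9 (0.05981) and Hoxc11 (0.07171). It changed no other call of a member between stages than those given in the report. Whether the numbers pair the samples is not known.

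Scaling mattered most for E16.5 against the morula, where centring on the receptor median gave 21 members higher against 9. From the morula to E10.5 the 28 rises became 31 with quantile normalization applied again (5689 of all probe sets) and 31 with cyclic loess (5351 of all). They became 32 with centring on the receptor median. The median change from the morula to E10.5 was 2.32 with that centring, 1.59 when centred on the upper quartile and 2.51 after the filter on dim probe sets, which kept 16625 probe sets and 29 members. The median from E10.5 to E16.5 was -2.07 after that filter and -1.63 with 1-symbol probe sets only (34 members), and it ranged from -1.85 to -1.62 when single arrays were left out. Over all probe sets, centring on the receptor median turned 5561 rises and 5957 falls into 7328 and 3601 from the morula to E10.5, and 6169 and 6671 into 8538 and 3952 from the morula to E16.5. Centring on the upper quartile turned 4441 rises and 4486 falls into 5690 and 3779 from the 2-cell stage to the morula. The cause of these shifts was not tested.

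The small early counts were unstable. For the 2-cell against the pronuclear stage the 3 rises became 1 with receptor centring and 0 at an adjusted p of 0.01 or with arrays of the same date only, and 1 to 3 when single arrays were left out. The 1 fall became 0 with 1-symbol probe sets, which leave out its row, and at an adjusted p of 0.01, and 0 to 1 when arrays were left out. For the morula against the 2-cell stage the 1 rise became 0 with array weights, at an adjusted p of 0.01, at a minimum change of 1 log2 unit and with only the 2 stages compared, and 0 to 1 when arrays were left out. The 2 falls became 1 with upper-quartile centring, the dim filter, 1-symbol probe sets, either stricter threshold or only the 2 stages compared, and 1 to 3 when arrays were left out. The 1 fall to E10.5, Hoxb13, became 0 with cyclic loess, receptor centring and the dim filter, which removes it, and 0 to 1 when arrays were left out. The same settings gave 0 for its fall from the morula to E16.5, and leaving out arrays gave 0 to 2.

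With the 99th percentile of the receptor probe sets, lower bounds shrank, to 1.78 for the rise and 2.52 for the fall of Hoxd11 and to 0.10 for the rise of Hoxb6. Fits of arrays of 1 date could not be made for E10.5 or E16.5 against the morula.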
